A study of Mus musculus with 12 samples.

Results

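Cdh19, Kcnj10 and Ptprz1 were followed as 3 genes known from satellite glia, the cells that wrap the cell bodies of sensory neurons. They were chosen by name and read at their positions in the mouse genome build GRCm38, and they are 3 of the 9969 genes that could be named by position among 56941 counted gene models. All 3 passed the filter on low counts. In the trigeminal ganglion, which holds the sensory neurons of the cornea and face, satellite glia buffer potassium around the neurons and are coupled to them by close contact. Cdh19 encodes cadherin 19, an adhesion molecule of the glial lineage derived from the neural crest. Kcnj10 encodes Kir4.1, the inwardly rectifying potassium channel of satellite glia and, in the central nervous system, of astrocytes and oligodendrocytes. Ptprz1 encodes a receptor-type tyrosine phosphatase of glia and glial precursors that binds pleiotrophin, midkine, contactins and tenascins.

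Bulk RNA from trigeminal ganglia of female C57BL/6J mice aged 8 weeks was sequenced in 12 libraries, 3 in each of 4 groups. One group had a 1.5 mm keratectomy of 1 randomly chosen eye and received electrical stimulation (ES) on each of 14 days, in sessions of 4 min with a current of 300 µA at 20 Hz. The second had the keratectomy alone and was sampled after 2 weeks, the third had stimulation without a wound, and the fourth was untreated. Injured mice had ketamine, xylazine and an analgesic, and stimulated mice had isoflurane at each session, so these exposures moved with the groups. A sham procedure is described, but no library is labelled as sham. Neither the number of mice per library nor the side of the ganglion is stated, and p-values therefore reflect only library-to-library spread, which may be technical.

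The counted models and the genes under them did not carry the same names, so each gene was read through the model that lay over its GRCm38 exons. Cdh19 (ENSMUSG00000047216, chr1:110888326-110977584, minus strand) was read through the model deposited as Gm36944, which covers 1 coding exon of 252 bp and 2507 bp of intron. Kcnj10 (ENSMUSG00000044708, chr1:172341210-172374085, plus strand) was read through the model deposited as Cfap45, 15 pieces with 446 bp of exon, of which 25 bp are coding, and 5271 bp of intron. Ptprz1 (ENSMUSG00000068748, chr6:22875502-23052916, plus strand) was read through its own model, which covers 14217 bp of its exons, 99.8% of them. For Cdh19 and Kcnj10 the shares were 5.89% and 8.25%, and reads from intron and exon cannot be told apart within a model. The model deposited under the symbol Cdh19 lies over no GRCm38 exon and held at most 4 counts in any library. The model deposited under the symbol Kcnj10 lies over exons of Pea15a and Dcaf8, so its 2343 to 4336 CPM (counts scaled to a common library total) say nothing of the channel.

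The stretches below are shown because they mark what the counts could see of each protein. The Cdh19 line is the whole coding exon under the model behind its level (GRCm38 chr1:110893185-110893436, minus strand). The first Kcnj10 line holds the coding bases under the model used for its level, with the start codon in capitals (chr1:172368921-172368945, plus strand). The second Kcnj10 line holds, in capitals, the codons of residues 130 to 132, glycine, tyrosine and glycine of the potassium selectivity filter (chr1:172369299-172369325), and lies outside that model. The Ptprz1 line holds, in capitals, the codons of residues 1929 to 1937, the phosphatase signature with its catalytic cysteine, spliced across 2 exons (from chr6:23033490 to 23035072, plus strand) and inside the model used. The bases are those of GENCODE M21 transcripts.
Cdh19 coding exon: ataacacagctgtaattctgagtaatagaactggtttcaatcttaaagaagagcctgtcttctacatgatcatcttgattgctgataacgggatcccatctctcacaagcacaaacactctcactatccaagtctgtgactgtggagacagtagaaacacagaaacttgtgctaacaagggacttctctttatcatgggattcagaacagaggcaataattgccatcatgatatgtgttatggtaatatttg
Kcnj10 start: ATGacgtcggtcgctaaggtctatt
Kcnj10 selectivity filter: accaccatcGGCTATGGCttccgctac
Ptprz1 phosphatase signature: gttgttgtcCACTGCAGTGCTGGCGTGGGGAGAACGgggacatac
The 252 bases of Cdh19 were 38.9% G or C, and the exon bases read for Ptprz1 and Kcnj10 were 40.4% and 45.1%, all below the median of 49.9% over tested models. Cdh19 stood at the percentile 8.18 of GC content and Ptprz1 at 11.9, with Kcnj10 at 28.3.

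**Figure D1:**
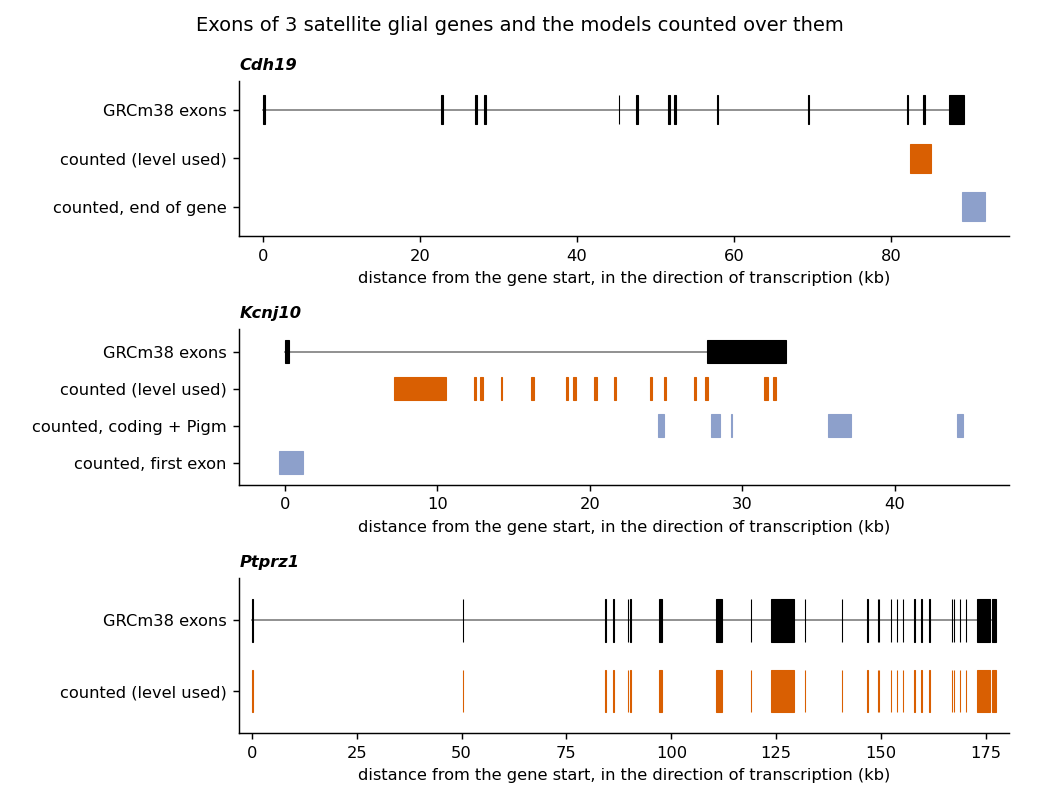
Exons of Cdh19, Kcnj10 and Ptprz1 (black) and the models counted over them, along the distance from each gene's start in kb; orange marks the model behind the level reported and blue the other models over the same gene. Cdh19 was read through 1 piece near its 3' end, Kcnj10 through 15 pieces spread over its intron and second exon, and Ptprz1 through nearly all of its exons.

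Libraries held 7952798 to 10751547 counts. Levels are CPM after scaling by trimmed means (TMM), and differences are log2 fold changes ± SE from edgeR's quasi-likelihood test in 1 fit of all libraries, called at a Benjamini-Hochberg adjusted p under 0.05 over 13053 models. A pair of libraries stood apart from their groups on the first principal component, which held 33.9% of the variance. Replicate 2 of the stimulated injured group lay at -32.5, against 57.4 and 20.7 in its groupmates and -54.7 to -47.0 in controls. Replicate 3 of the stimulated uninjured group lay at -28.4, against 13.5 and 21.5 in its groupmates. Sensory neuron markers were present in every library, with a summed level of 4229 to 10460 CPM over the 5 tested of 10 listed (Nefm, Thy1, Uchl1, Avil and Scn10a).

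Cdh19 was lower than in controls in all 3 treated groups. It stood at 21.7, 42.8 and 25.5 CPM in stimulated injured mice, at 26.4, 24.9 and 24.7 CPM in injured mice, at 17.3, 12.7 and 24.1 CPM in stimulated uninjured mice, and at 53.7, 57.0 and 54.3 CPM in controls. Every treated library was below every control library, and replicate 2 of the stimulated injured group came nearest to them. Against controls, Cdh19 fell with injury alone by 1.12 ± 0.24 (0.461-fold, edgeR adjusted p = 0.00304) and with stimulation alone by 1.60 ± 0.24 (0.330-fold, edgeR adjusted p = 0.000235). With injury and stimulation it fell by 0.87 ± 0.23 (0.547-fold, edgeR adjusted p = 0.0175). In bulk tissue, fewer satellite glia and less of this RNA per cell cannot be told apart. Of the 3 genes, 2 were called lower with injury, a direction that 11.7% of all models took, and 1 higher, as 19.3% of models were. With stimulation alone 2 were again called lower, against 11.7% of models, and 1 higher, against 18.2%. With injury and stimulation 2 were called lower, against 4.93% of models, and none higher, against 12.3%. All 3 comparisons share the same control libraries.

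Between treated groups, no difference in Cdh19 was called. Stimulated injured mice differed from injured mice by 0.25 ± 0.24 (95% interval -0.22 to 0.71, edgeR adjusted p = 0.756), and without replicate 2 of the stimulated injured group by -0.03 (edgeR adjusted p = 0.967). Stimulated injured mice stood 0.73 ± 0.24 above stimulated uninjured mice (edgeR adjusted p = 0.0931), with overlapping libraries. Injured mice stood 0.48 ± 0.24 above stimulated uninjured mice (edgeR adjusted p = 0.196), with no overlap. Without replicate 2 of the stimulated injured group the fall with injury and stimulation was -1.24 (edgeR adjusted p = 7.91e-05). Leaving out replicate 1 or 3 of that group, or any 1 control, ended that call (edgeR adjusted p = 0.0533 to 0.0814). Without replicate 3 of the stimulated uninjured group, Cdh19 stood at -1.89 with stimulation alone (edgeR adjusted p = 0.000102).

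A second model over Cdh19, deposited as Gm38255, covers the last 231 bp of its final exon and 2765 bp past its end, and it moved less. It stood at 45.1, 70.0 and 34.5 CPM in stimulated injured mice, at 43.3, 42.1 and 46.9 CPM in injured mice, at 28.6, 22.6 and 37.8 CPM in stimulated uninjured mice, and at 63.2, 72.1 and 61.7 CPM in controls. Its fall was called with stimulation alone (-1.14 ± 0.22, edgeR adjusted p = 0.00123), while with injury it was -0.58 ± 0.22 (edgeR adjusted p = 0.0560) and with both -0.40 ± 0.22 (edgeR adjusted p = 0.231). By length, the model used for the Cdh19 level was mostly intron (2507 bp) and this end model mostly sequence past the gene (2765 bp). The ratio of the former to the latter was 0.480, 0.611 and 0.740 in stimulated injured mice, 0.610, 0.591 and 0.527 in injured mice, 0.603, 0.561 and 0.638 in stimulated uninjured mice, and 0.849, 0.790 and 0.8805 in controls. It was thus below the controls in every treated library, by 0.48 to 0.55 on the log2 scale between groups (two-sided exact permutation p = 0.1 for each of the 3 treated groups, the smallest that 3 against 3 allows). The ratio was computed after the values of both models had been seen.

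Kcnj10 was the member that was higher with injury. It stood at 99.3, 87.0 and 94.99 CPM in stimulated injured mice, at 231, 162 and 251 CPM in injured mice, at 106, 230 and 85.8 CPM in stimulated uninjured mice, and at 92.0, 63.3 and 51.3 CPM in controls. Injured mice were above every control and every stimulated injured library, and replicate 2 of the stimulated uninjured group reached the injured range alone. Kcnj10 rose with injury by 1.64 ± 0.30 (3.12-fold, edgeR adjusted p = 0.00185), and this call stood in each of the 12 fits with 1 library left out (1.47 to 1.91). With injury and stimulation it differed from controls by 0.44 ± 0.30 (95% interval -0.14 to 1.03, edgeR adjusted p = 0.333).

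Stimulated injured mice had less Kcnj10 than injured mice, with no overlap of libraries, but the difference of -1.20 ± 0.30 missed the threshold (0.437-fold, edgeR adjusted p = 0.0616). Of all models 1.5% were called lower and 0.0383% higher in this comparison, and none of the 3 genes was. DESeq2 (-1.14, adjusted p = 0.0119) and an edgeR fit of those groups alone (-1.15, adjusted p = 0.0137) called it, and so did 4 of the 12 edgeR fits with 1 library left out (adjusted p = 0.0105 to 0.349 over the 12). The highest of these p-values was that without replicate 2 of the stimulated injured group (-1.08). With stimulation alone Kcnj10 was called higher than in controls by 1.03 ± 0.30 (2.04-fold, edgeR adjusted p = 0.0168), with overlapping libraries. That call rested on replicate 2 of the stimulated uninjured group: without it the difference was 0.43 (edgeR adjusted p = 0.219). Stimulated injured and stimulated uninjured mice differed in Kcnj10 by -0.58 ± 0.30 (edgeR adjusted p = 0.299), and injured and stimulated uninjured mice by 0.61 ± 0.30 (edgeR adjusted p = 0.185), with overlap in both. The call with stimulation alone was also lost without control replicate 2 or 3 (edgeR adjusted p = 0.0523 and 0.0801) or replicate 2 of the stimulated injured group (0.99, edgeR adjusted p = 0.104).

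Another model, over coding bases of Kcnj10 together with exons of a neighbouring gene, did not show this rise. The model deposited as 4933439K11Rik covers 651 bp of Kcnj10, the selectivity filter included, but also 1956 bp outside the gene, with exons of the neighbour Pigm, a mannosyltransferase gene, so it is a mixed readout. It stood at 32.3, 54.8 and 38.9 CPM in stimulated injured mice, at 71.5, 44.2 and 59.3 CPM in injured mice, at 63.8, 59.3 and 77.7 CPM in stimulated uninjured mice, and at 65.8, 57.3 and 53.2 CPM in controls. Injured and control libraries overlapped, with a difference of -0.01 ± 0.20 (edgeR adjusted p = 0.973). With injury and stimulation the difference from controls was -0.48 ± 0.20 (edgeR adjusted p = 0.111). The ratio of the model used for the level to this mixed model was 3.07, 1.59 and 2.44 in stimulated injured mice, 3.24, 3.66 and 4.24 in injured mice, 1.66, 3.87 and 1.11 in stimulated uninjured mice, and 1.40, 1.103 and 0.965 in controls. Injured libraries were above all controls, by 1.69 on the log2 scale (two-sided exact permutation p = 0.1, the smallest possible here), a ratio also computed after the values had been seen. A model over the 242 bp first exon of Kcnj10, deposited as Gm37125, held only 1.14 to 9.03 CPM and gave 0.55 ± 0.47 with injury (edgeR adjusted p = 0.398). The rise with injury was thus called for the model of intron and second exon pieces alone, and not for the mixed coding or first exon readouts.

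**Figure D2:**
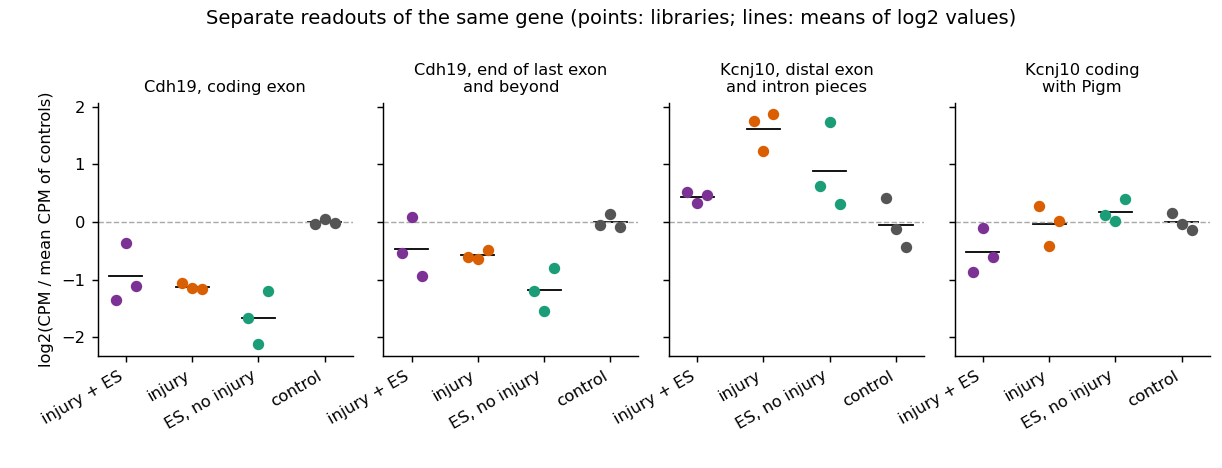
Log2 ratio of each library's CPM to the control mean (vertical axis) for separate models over Cdh19 and Kcnj10, by group; points are libraries and lines are means of the log2 values. The Cdh19 readouts both lie below 0 in stimulated uninjured mice. Of the Kcnj10 readouts 1 is raised in injured mice, where the mean of the mixed coding readout lies about 0. In stimulated injured mice the mixed coding readout lies below 0.

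Ptprz1, the gene read over nearly its whole length, fell by a smaller amount. It stood at 182.9, 255.8 and 221.6 CPM in stimulated injured mice, at 246, 186 and 242 CPM in injured mice, at 205, 206 and 220 CPM in stimulated uninjured mice, and at 354, 267 and 322 CPM in controls. No treated library reached the lowest control, although replicate 2 of the stimulated injured group came close to it. Ptprz1 fell with injury by 0.48 ± 0.16 (0.715-fold, edgeR adjusted p = 0.0305), with stimulation alone by 0.58 ± 0.16 (0.669-fold, edgeR adjusted p = 0.0116) and with both by 0.51 ± 0.16 (0.701-fold, edgeR adjusted p = 0.0358). Stimulated injured and injured mice differed by -0.03 ± 0.16 (95% interval -0.34 to 0.28, edgeR adjusted p = 0.973). Stimulated injured and stimulated uninjured mice differed by 0.07 ± 0.16 (95% interval -0.25 to 0.38, edgeR adjusted p = 0.871), and injured and stimulated uninjured mice by 0.10 ± 0.16 (95% interval -0.22 to 0.41, edgeR adjusted p = 0.740). Leaving out single libraries ended the injury call in 4 of 12 cases (control replicates 1 and 3, injury replicates 2 and 3), the stimulation call in 1 (control replicate 1) and the call for both in 6. Without replicate 2 of the stimulated injured group the fall with both was -0.66 (edgeR adjusted p = 0.00255).

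**Figure D3:**
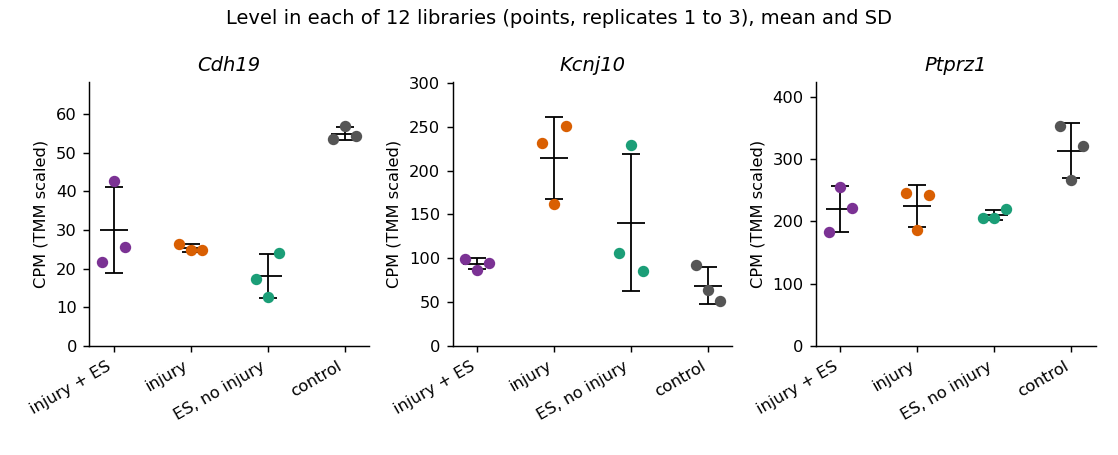
Level of Cdh19, Kcnj10 and Ptprz1 in CPM (vertical axis, from 0) in the 3 libraries of each group, with the mean and SD (bars). Cdh19 and Ptprz1 are lower in every treated library than in every control; Kcnj10 is highest in injured mice and in replicate 2 of the stimulated uninjured group.

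Base composition moved with the groups. Across 10344 tested models, the rank correlation of log2 fold change with GC content was 0.304 with injury, 0.515 with stimulation alone and 0.346 with both, so models poor in G and C tended to be lower in treated mice. After a smooth trend of each library on GC content and length was removed, Cdh19 stayed called with injury (-0.69 ± 0.19, edgeR adjusted p = 0.0162) and with stimulation alone (-1.06 ± 0.19, edgeR adjusted p = 0.00231). With both, its call was lost (-0.46 ± 0.19, edgeR adjusted p = 0.102). Ptprz1 lost all 3 calls, with -0.20 ± 0.14 for injury (edgeR adjusted p = 0.299), -0.02 ± 0.14 for stimulation alone (edgeR adjusted p = 0.932) and -0.14 ± 0.14 for both (edgeR adjusted p = 0.553). Kcnj10 kept its calls, at 1.84 ± 0.33 with injury (edgeR adjusted p = 0.00297) and 1.31 ± 0.32 with stimulation alone (edgeR adjusted p = 0.0128). The Cdh19 end model was called after this removal with injury (-0.67, edgeR adjusted p = 0.0447) and with stimulation alone (-0.72, edgeR adjusted p = 0.0434). The mixed coding model of Kcnj10 was then called lower with both (-0.66, edgeR adjusted p = 0.0478). GC content and length were those of the exon bases under each model. These were 252 of 2759 bp for the Cdh19 model and 446 of 5717 bp for the Kcnj10 model, against 14217 of 14245 bp for Ptprz1. For Cdh19 and Kcnj10 the intron bases in the model thus did not enter the removal. What the trend comes from was not tested.

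**Figure D4:**
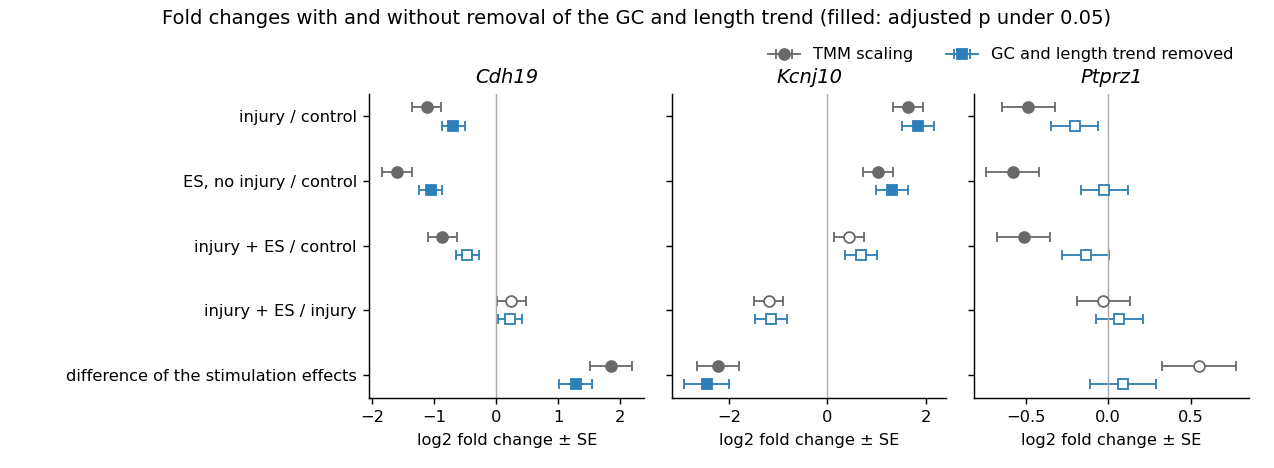
Log2 fold change ± SE (horizontal axes) of Cdh19, Kcnj10 and Ptprz1 for 4 comparisons and for the difference of the stimulation effects, under TMM scaling (circles) and with the trend on GC content and length removed (squares); filled symbols have an adjusted p under 0.05. Removal leaves Ptprz1 near 0 with stimulation alone (-0.02) and Cdh19 at -1.06.

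The effect of stimulation depended on injury for Cdh19 and Kcnj10. The difference between the effect of stimulation in injured mice and that in uninjured mice was 1.85 ± 0.34 for Cdh19 (edgeR adjusted p = 0.00291), from effects of 0.25 in injured and -1.60 in uninjured mice. For Kcnj10 it was -2.22 ± 0.42 (edgeR adjusted p = 0.00398), from -1.20 in injured and 1.03 in uninjured mice. For Ptprz1 it was 0.55 ± 0.23 (edgeR adjusted p = 0.0979). The end model of Cdh19 gave 1.32 ± 0.31 (edgeR adjusted p = 0.0100; 1.07 without the trend, adjusted p = 0.0626), and the mixed coding model of Kcnj10 gave -0.66 ± 0.28 (edgeR adjusted p = 0.115). Over all models 6.86% were called in the direction of Cdh19 and 12.3% in that of Kcnj10. Without the trend on GC content and length they were 1.28 ± 0.27 for Cdh19 (edgeR adjusted p = 0.0127) and -2.46 ± 0.46 for Kcnj10 (edgeR adjusted p = 0.00762). The Kcnj10 call was lost without replicate 2 of the stimulated injured group (-2.07, edgeR adjusted p = 0.0606), and without replicate 2 of the stimulated uninjured group the difference was -1.56 (edgeR adjusted p = 0.00999). A difference among the 4 groups was called for all 3 genes (edgeR adjusted p = 0.000816 for Cdh19, 0.00296 for Kcnj10 and 0.0225 for Ptprz1), as for 38.6% of models. None of the 3 genes was called between stimulated injured and stimulated uninjured mice, where 2.21% of models were called higher and 1.85% lower, or between injured and stimulated uninjured mice, where 7.66% were higher and 6.72% lower.

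Of 17 listed satellite glial markers 7 could be tested, Cdh19, Kcnj10 and Ptprz1 among them, and the 7 did not move as a block. With injury 3 were called higher and 3 lower (median log2 fold change 0.15, against 0.03 over all models), and with stimulation alone 1 higher and 4 lower (median -0.58, against 0.03). With both, 1 was higher and 2 lower (median -0.26, against -0.02). Over all models 19.3% were called higher and 11.7% lower with injury, 18.2% and 11.7% with stimulation alone, and 12.3% and 4.93% with both. Each list count below is to be read beside these shares. The matching shares with the GC and length trend removed are not reported here. After removal of the GC and length trend the counts with injury were 1 higher (Kcnj10) and 1 lower (Cdh19). With stimulation alone they were then 1 higher and 2 lower (median -0.15), and with both none was called in either direction (median -0.00227). The remaining 10, among them Fabp7, Glul, Gja1, Sox10 and Apoe, had no model that named them by position and were not analysed here.

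Ednrb, which encodes the endothelin B receptor found on satellite glia, was lowest in the same group as Cdh19. It stood at 64.5, 56.4 and 68.9 CPM in stimulated injured mice, at 58.3, 57.6 and 56.5 CPM in injured mice, at 39.3, 41.6 and 41.0 CPM in stimulated uninjured mice, and at 76.9, 62.9 and 86.7 CPM in controls. The stimulated uninjured libraries were the lowest of all, a fall of 0.89 ± 0.14 (edgeR adjusted p = 0.000348; -0.75 without the trend on base composition, edgeR adjusted p = 0.00715). Fbxo2, which encodes a glycoprotein-binding ubiquitin ligase subunit, rose with injury by 0.76 ± 0.24 (edgeR adjusted p = 0.0225; 0.44 without that trend, adjusted p = 0.182). Slc1a3, the glial glutamate transporter GLAST, was named after its values were seen. It stood at 4.06, 3.42 and 2.71 CPM in stimulated uninjured mice, against 8.09, 8.08 and 5.74 CPM in controls (-1.11 ± 0.36, edgeR adjusted p = 0.0276; -0.86 without that trend, adjusted p = 0.0971).

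Around Kcnj10, 7 of 22 listed genes of glial potassium, water and glutamate handling were tested, Kcnj10 itself among them. With injury 3 were higher, Kcnj10 among them, and 1 lower (median 0.15), against 19.3% and 11.7% of all models. Between stimulated injured and injured mice 2 were lower and none higher (median -0.64, against 0.00124 over all models). In that comparison 1.5% of all models were called lower. Gjc3, which encodes connexin 29 of myelinating glia, stood at 243, 301 and 222.2 CPM in stimulated injured mice, at 415, 377 and 406 CPM in injured mice, and at 302, 278 and 246 CPM in controls. Injured mice thus stood above both without overlap, a rise of 0.53 ± 0.14 with injury (edgeR adjusted p = 0.00996) and a fall of 0.64 ± 0.14 with stimulation of injured mice (edgeR adjusted p = 0.0263). Slc12a2, the NKCC1 cotransporter that brings sodium, potassium and chloride into cells, fell with injury by 1.01 ± 0.36 (edgeR adjusted p = 0.0443; -0.57 without the trend on base composition, adjusted p = 0.176). Of 14 listed inward rectifier channel genes only Kcnj10, Kcnj8 and Kcnj11 were tested. Kcnj8 and Kcnj11, which encode the pore subunits Kir6.1 and Kir6.2 of ATP-sensitive channels, stayed between 0.333 and 5.40 CPM. Kcnj11 was called higher with stimulation alone (1.60 ± 0.56, edgeR adjusted p = 0.0407; 1.15 without the trend, adjusted p = 0.181), and Kcnj8 gave 1.15 ± 0.55 (edgeR adjusted p = 0.125).

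Among 22 listed ligands, partners and substrates of Ptprz1, a list that holds Ptprz1 itself, 9 were tested. Ptprz1 was among the 9 and counts as lower with injury and with stimulation alone. The ligands pleiotrophin and midkine were not tested. With injury 5 were lower and 1 higher (median -0.61), and with stimulation alone 2 were lower and 2 higher (median -0.45), each against a median of 0.03 over all models. With the trend on base composition removed, 4 were lower and none higher with injury (median -0.39). With stimulation alone 1 was then lower and 2 higher (median -0.0231). Cntn1, which encodes contactin 1, a neuronal surface protein that binds the receptor, stood at 20.3, 66.5 and 29.2 CPM in stimulated injured mice, at 22.3, 17.4 and 26.1 CPM in injured mice, at 35.8, 32.0 and 66.5 CPM in stimulated uninjured mice, and at 74.4, 64.8 and 86.9 CPM in controls. The high values in the treated groups were those of the pair of libraries that stood apart. Cntn1 fell with injury by 1.78 ± 0.36 (edgeR adjusted p = 0.00293), as did the scaffold gene Magi3 by 1.40 ± 0.40 (edgeR adjusted p = 0.0145) and Cntn4, another contactin gene, by 1.31 ± 0.39 (edgeR adjusted p = 0.0177). Dlg4, the gene of the postsynaptic scaffold protein PSD-95, rose with injury by 0.63 ± 0.19 (edgeR adjusted p = 0.0212) and with stimulation alone by 1.34 ± 0.19 (edgeR adjusted p = 0.000180). Without the trend on base composition the injury call was lost (0.28, edgeR adjusted p = 0.277), and the call with stimulation alone stood (0.90, edgeR adjusted p = 0.00483).

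Of 23 listed cadherins and catenins 6 were tested, and Cdh19 was 1 of 2 called lower with injury, beside 1 called higher. Cdh1, which encodes E-cadherin, stood at 336, 228 and 334 CPM in stimulated injured mice, at 339, 362 and 324 CPM in injured mice, at 304, 275 and 274 CPM in stimulated uninjured mice, and at 212, 224 and 184 CPM in controls. It was above every control in each treated library, and it rose with injury by 0.73 ± 0.16 (edgeR adjusted p = 0.00324). Cdh18, which encodes a type II cadherin of neurons, fell with injury by 0.59 ± 0.16 (edgeR adjusted p = 0.0122).

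Markers of several other cell types, central glia among them, moved with Kcnj10. The 4 tested of 10 listed astrocyte markers (Agt, Slc14a1, Dao and Aldh1l1) were all called higher with injury (median log2 fold change 2.18), as 19.3% of all models were. All 4 also had a called, negative difference of the stimulation effects, as 12.3% of all models had. Their summed level was 46.0, 47.3 and 31.4 CPM in stimulated injured mice, 149, 104 and 139 CPM in injured mice, 56.8, 96.8 and 41.7 CPM in stimulated uninjured mice, and 35.4, 31.2 and 20.6 CPM in controls. Replicate 2 of the stimulated uninjured group was the highest of its group for these markers as for Kcnj10. The 4 tested of 10 oligodendrocyte markers (Mog, Cldn11, Enpp6 and Gpr37) were also called higher with injury (median 1.88). They summed to 146, 333 and 181 CPM in stimulated injured mice, 1069, 588 and 1016 CPM in injured mice, 338, 460 and 253 CPM in stimulated uninjured mice, and 321, 197 and 195 CPM in controls. The 9 tested of 13 meningeal and fibroblast markers summed to 8353 to 10080 CPM in stimulated injured mice, 27480 to 27850 CPM in injured mice, 4723 to 9223 CPM in stimulated uninjured mice, and 9257 to 10100 CPM in controls. Of them 6 were called higher with injury, against 19.3% of all models, and 6 lower with stimulation of injured mice, against 1.5%. The 6 tested of 10 macrophage markers summed to 99 to 113 CPM in stimulated injured mice, 188 to 223 CPM in injured mice, 73.9 to 98.4 CPM in stimulated uninjured mice, and 120 to 138 CPM in controls, with 3 called higher and 1 lower with injury. Both sums were thus highest in injured mice, as Kcnj10 was, but were lower in stimulated uninjured mice than in controls. Most of the meningeal and fibroblast sum was Ptgds, with means of 21990 CPM in injured mice and 5226 CPM in controls. Beside the 6 called higher, Postn (11.9 against 20.4 CPM) and Pdgfra (5.28 against 6.22 CPM) had lower means in injured mice than in controls. So did the macrophage markers Mrc1 (1.26 against 3.43 CPM) and F13a1 (2.11 against 3.37 CPM), beside the 3 called higher. The part of the cell types of these 4 lists in the Kcnj10 result was not tested. Aqp4, Gfap and Slc1a2 of the astrocyte list and Olig1, Olig2 and Mobp of the oligodendrocyte list were not analysed here.

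Markers of peripheral glia and neurons stood beside Cdh19 as follows. The 6 tested of 14 myelinating Schwann cell markers summed to 3414 to 6524 CPM in stimulated injured mice, 6710 to 8513 CPM in injured mice, 5005 to 5366 CPM in stimulated uninjured mice, and 3185 to 4156 CPM in controls, with 5 called higher and none lower with injury. The 3 tested of 9 non-myelinating Schwann cell markers summed to 648 to 865 CPM in stimulated injured mice, 646 to 700 CPM in injured mice, 897 to 1026 CPM in stimulated uninjured mice, and 497 to 576 CPM in controls, with 1 called higher and 1 lower with injury. Both sums were thus higher in injured and in stimulated uninjured mice than in controls, where Cdh19 was lower. The non-myelinating rise was that of Ngfr, with means of 307 CPM in controls, 455 in injured and 748 in stimulated uninjured mice. Abca8a and Csmd1 did not rise. In the same order, their means were 225, 222 and 192 CPM for Abca8a and 3.05, 0.72 and 2.42 CPM for Csmd1. The 5 tested sensory neuron markers summed to 5732 to 10460 CPM in stimulated injured mice, 6497 to 8002 CPM in injured mice, 7817 to 9428 CPM in stimulated uninjured mice, and 4229 to 4900 CPM in controls, so every treated library was above every control. Called higher were 4 with both, 2 with injury and 5 with stimulation alone, against 12.3%, 19.3% and 18.2% of all models, and none was called lower. With the trend on base composition removed the counts were 2, 0 and 2. Of 8 listed oligodendrocyte precursor markers, a list that holds Ptprz1 itself, 4 were tested and only Ptprz1 was called with injury. The other 3, Pdgfra, Cspg4 and Vcan, were at 7.88 CPM or less in every library. The part of cell makeup in the Cdh19 and Ptprz1 results was not tested.

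Genes of glial lineage and of the glial response to injury were sparsely covered. Of 20 listed lineage factors and signals 3 were tested, and Zeb2, a transcription factor of Schwann cell differentiation, was the 1 called lower with injury. Zeb2 stood at 50.5, 115 and 53.8 CPM in stimulated injured mice, at 78.4, 65.7 and 91.6 CPM in injured mice, at 75.5, 68.6 and 132 CPM in stimulated uninjured mice, and at 182, 177 and 153 CPM in controls. Every treated library was below every control, a fall of 1.12 ± 0.28 with injury (edgeR adjusted p = 0.00755; -0.92 without the trend on base composition, adjusted p = 0.0190). Of 17 reaction genes 4 were tested, and 2 were called higher with injury (median 0.67). These were Vim, the gene of the intermediate filament protein vimentin (0.81 ± 0.20, edgeR adjusted p = 0.00764), and the complement gene C3 (1.06 ± 0.32, edgeR adjusted p = 0.0194). Cp, which encodes the copper-carrying ferroxidase ceruloplasmin, stood at 35.6, 36.5 and 29.8 CPM in stimulated uninjured mice, against 64.3, 95.3 and 69.8 CPM in controls, a fall of 1.17 ± 0.16 (edgeR adjusted p = 0.000147).

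**Figure D5:**
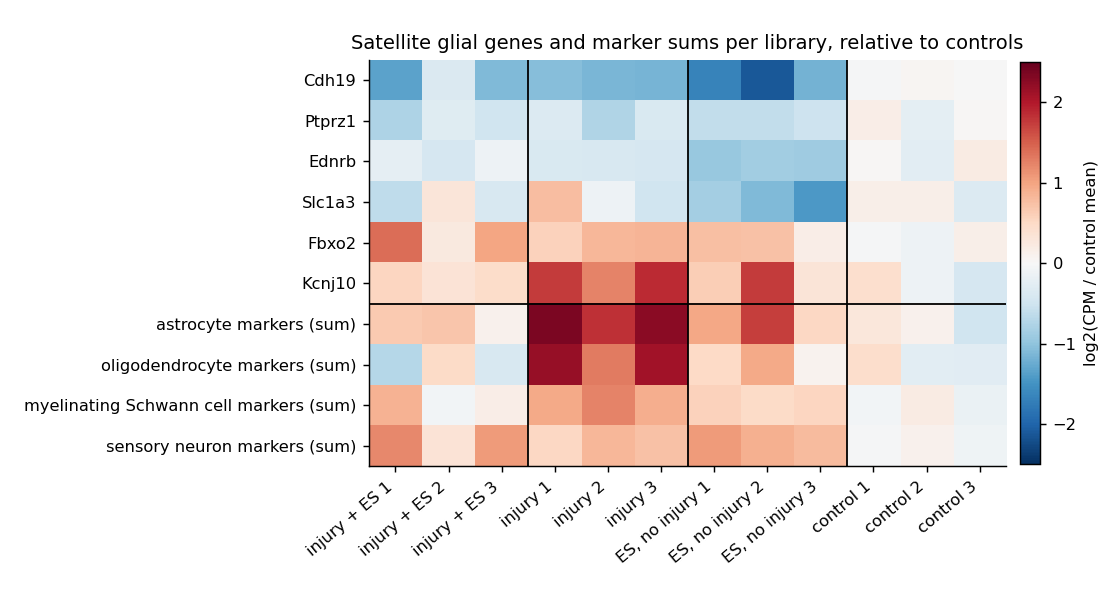
Log2 ratio to the control mean (colour) of 6 of the 7 tested satellite glial markers and of 4 marker sums (rows) in each library (columns). Cdh19 is lower in every treated library, and the row of Kcnj10 is darkest in injured mice and in replicate 2 of the stimulated uninjured group, as is the row of astrocyte markers.

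Across the 12 libraries, log2 CPM of Cdh19 and Ptprz1 had a Pearson correlation of 0.812, against -0.659 for Cdh19 and Kcnj10 and -0.414 for Kcnj10 and Ptprz1. These are descriptions over libraries that share groups, depth and the GC trend. Among 4353 genes compared, those most like Cdh19 were Mib1 (0.970), March6 (0.968), Serinc1 (0.967), Nek1 (0.964) and Ppm1a (0.963), and among the least like were Tspan7 (-0.982) and Apbb1 (-0.962). The exon bases read for the 5 had a GC content of 32.2% to 43.8%, and those of Tspan7 and Apbb1 had 55.8% and 54.2%. For Ptprz1 the most alike were Dyrk2 (0.959), Ankrd12 (0.952), Gpcpd1 (0.950), Vps26a (0.938) and Trmt10a (0.930), and the least were Cc2d1a (-0.966), Prr7 (-0.965) and Arpc1b (-0.957). For Kcnj10 they were Sv2a (0.976), Aplp1 (0.959), Arc (0.955), Baalc (0.954) and Rasgrp2 (0.951), against Mettl8 (-0.922), Lrrk2 (-0.879) and Tpp2 (-0.877). The genes most like Kcnj10 included both GC-poor and GC-rich exons, at 44.5% for Baalc and 61.6% for Aplp1.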

How the data were processed

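The values analysed are the whole-number gene counts deposited by the authors. They were made with featureCounts 2.0.6, per the file headers, for Ensembl 110 models of GRCm39, without strand, with single reads counted and a read allowed in several overlapping genes. The submitters' processing notes name FastQC, Salmon 1.10.2 and DESeq2. Per the labels' protocols, libraries were poly(A) enriched and read as paired 150 bp reads. Which aligner and build made the alignments is not given in the sources used here. The counts lay over GRCm38 exons, so genes were named by position: a model over exons of exactly 1 GENCODE M21 gene, at least 100 bp, took that gene's name, and of several the one with most exon bases did. Coordinates were not converted. Antisense reads cannot be told apart.

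One edgeR 4.0.16 fit (TMM, filterByExpr, robust quasi-likelihood, R 4.3.3) of 12 libraries gave all tests. Its standard errors are the fold change over the root of F. Intervals of 95% are normal ones from these. Library log2 values used a prior count of 2. Alternatives used DESeq2 1.42.0, limma 3.58.1 (voom) and, for the GC and length trend, mgcv 1.9.3. The fit was tested on simulated data. The members, lists, tests and the rule for named genes (the members, up to 4 members of a described list with the smallest p, and the 5 most and 3 least alike genes) were chosen with earlier results of these data known. Some items that the rule names are not reported here.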

Additional observations from a re-analysis of the deposited data

Results flagged for a closer look

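The effect of stimulation in injured mice differed from that in uninjured mice for Cdh19, by 1.85 ± 0.34 on the log2 scale (edgeR adjusted p = 0.00291). For Kcnj10 it differed in the other direction, by -2.22 ± 0.42 (edgeR adjusted p = 0.00398). Both were picked out because the difference itself passed the test. Only the Cdh19 difference was called in each of the 12 fits with a library left out (1.62 to 2.20), while that of Kcnj10 was lost without replicate 2 of the stimulated injured group. Groups of 3 were too small for a test of single outlying libraries.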

How the results depend on the processing

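The 21 differences of the 3 genes were taken under up to 22 alternative settings, which gave 459 results. Each setting had 1 choice changed or had the replicate block and the trend removal together. Of the 459 results, 391 kept direction and side of the threshold, 35 lost and 15 gained a call, and 18 turned sign. All turns of sign were in differences not called, and 6 differences never changed. Values are log2 fold changes, and the cause of a change was not tested. With the GC and length trend removed, Ptprz1 was no longer called with injury (-0.2029), stimulation alone (-0.0231) or both (-0.1357), nor Cdh19 with both (-0.4649). Of 18 same-numbered pairs of libraries, 1 correlated above 0.1 in its deviations from group means (range -0.262 to 0.197). With 3 libraries per group this check could not exclude a pairing by replicate number. The replicate block took Ptprz1 past the threshold with injury (-0.485) and both (-0.5043), and the block with the trend removed gave -0.2027 with injury, -0.0184 with stimulation alone and -0.1273 with both for Ptprz1 and -0.472 with both for Cdh19. The sum of all Cdh19 models lost the call with both (-0.594). A fit of only the groups compared lost Kcnj10 with stimulation alone (0.991) and Ptprz1 with both (-0.541) and called Kcnj10 between stimulated injured and injured mice (-1.151), as did DESeq2 (-1.14) and no low-count filter (-1.181). Voom lost Kcnj10 with stimulation alone (0.867). Cdh19 between stimulated injured and stimulated uninjured mice was called by DESeq2 (0.764), voom (0.659) and without the filter (0.683), and between injured and stimulated uninjured mice by voom (0.621). The Ptprz1 difference of stimulation effects was called by DESeq2 (0.637) and voom (0.566). Ptprz1 turned sign between stimulated injured and injured mice with RLE factors (0.02256), DESeq2 (0.02278), only those groups (0.01958), the trend removed (0.0672) and the block with it (0.0754). It did so with the trend removed, without and with the block, between stimulated injured and stimulated uninjured mice (-0.1126, -0.1089) and between injured and stimulated uninjured mice (-0.1798, -0.1843).

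With each library left out in turn, Ptprz1 ranged from -0.590 to -0.3577 with injury, -0.678 to -0.476 with stimulation alone, -0.657 to -0.390 with both, -0.152 to 0.0868 between stimulated injured and injured mice, -0.0284 to 0.1768 between stimulated injured and stimulated uninjured mice, and 0.417 to 0.663 for the difference of effects. Kcnj10 ranged from 0.427 to 1.301 with stimulation alone, -1.366 to -1.068 between stimulated injured and injured mice, 0.286 to 1.127 between injured and stimulated uninjured mice (1.127 without stimulated uninjured replicate 2, adjusted p = 0.00656), and -2.498 to -1.561 for the difference of effects. Cdh19 ranged from -0.0329 to 0.4317 between stimulated injured and injured mice and -1.239 to -0.680 with both. The models called over the whole table ranged over all refits from 2198 to 5768 with injury (4046 as reported), 1445 to 5613 with stimulation alone (3896), 11 to 5354 with both (2247, 11 without stimulated injured replicate 3) and 5 to 1044 between stimulated injured and injured mice (201). Between stimulated injured and stimulated uninjured mice, edgeR called 531 with all groups and 0 of 11783 in a fit of those groups only (1730 at an unadjusted p under 0.05), against 1166 by DESeq2 and 2004 by voom. At 0.333 to 5.40 CPM, Kcnj8 and Kcnj11 had standard errors of 0.55 and 0.57 with injury, against 0.24 for Cdh19.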
